A study of Mus musculus with 6 samples.

Results

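The mitochondrially encoded genes are the 37 of 52636 gene IDs whose name in the deposited table starts with mt-. The name alone chose them, and no measured value was used. They comprise 13 protein genes, 2 ribosomal RNA (rRNA) genes and 22 transfer RNA (tRNA) genes, and GENCODE M21 annotation of GRCm38 places all of them on the mitochondrial chromosome. RNA was sequenced from cells with high EpCAM, an epithelial surface protein, sorted from the thoracic oesophagus of mice with the genotype Krt5-CreERT2:R26SmoM2/EYFP. All libraries date from 12 weeks after tamoxifen. In this model Cre is driven by the Krt5 promoter, which is active in basal epithelial cells, and tamoxifen switches on SmoM2, a Smoothened that signals in the Hedgehog pathway without ligand. Both groups carry SmoM2: 3 libraries came from untreated mice and 3 from mice that received ibuprofen, a cyclooxygenase inhibitor, in the drinking bottle at 0.6 g per l. The design holds 1 comparison, ibuprofen against untreated. The labels give neither the age of the mice nor whether libraries came from separate animals, and p-values therefore reflect the spread between these libraries alone, which may be technical. All untreated libraries share one code in their names and all ibuprofen libraries another, and the titles call only the untreated cells epithelial. The treatment and whatever these codes and words mark cannot be told apart.

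The mitochondrial genome is a small circle inside the organelle that encodes core subunits of the respiratory chain and of ATP synthase, together with the rRNAs and tRNAs needed to translate them. Both strands are transcribed as long precursors, which are cut largely at the tRNAs that lie between the other genes. Pieces of this genome have also been copied into the chromosomes over evolution, and sequencing reads that match both places may be dropped or split between them.

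Values are CPM, the reads of a gene scaled to a fixed total per library. The CPM steps gave an estimated 6361295 to 8764364 reads assigned to genes per library, so that 1 read was worth 0.114 to 0.157 CPM. limma was run on log2(CPM + 1) for the 16684 genes that reached 1 CPM in 3 or more libraries, and calls were made at an adjusted p under 0.05 (Benjamini-Hochberg, over all of them). It called 87 genes, or 0.521%, of which 50 were higher and 37 lower with ibuprofen. The 8 epithelial marker genes summed to 11162 to 12497 CPM in untreated and 8956 to 10221 CPM in ibuprofen libraries, without overlap and with 0 of 8 called. Fibroblast markers summed to 43.9 to 87.5 CPM in untreated and 67.1 to 146 CPM in ibuprofen libraries, and lists for striated muscle, smooth muscle, endothelium, Schwann cells and neurons, macrophages, lymphocytes, mast cells and erythroid cells to between 0.6 and 17.6 CPM. Of these sums, that of the 4 macrophage markers did not overlap, at 8.39 to 12.0 CPM in untreated and 12.2 to 16.9 CPM in ibuprofen libraries. The sum of the 3 mast cell markers was 16.5 CPM in ibuprofen replicate 3 and 3.40 to 4.45 CPM in the other 5 libraries. This sum came from 1 gene, because Cpa3 and Mcpt4 added nothing to it. Of the defining markers, Myh4, Elavl4, Adgre1, Ms4a1, Cpa3 and Mcpt4 were listed at 0 in every library. The part of these marker differences in the values below was not tested.

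No mitochondrially encoded gene passed the test. Of the 37 genes, 34 passed the filter on low values (13 protein, 2 rRNA and 19 tRNA genes), and limma called 0 of 34, against 0.521% of all tested genes. At an unadjusted p under 0.05 there were 3 of 34, or 8.82%, against 17.9% of all tested genes, and these were the tRNA genes mt-Ts1, mt-Tp and mt-Tw. Most differences were positive: 28 of 34 genes, or 82.4%, had a positive log2 fold change (ibuprofen minus untreated), against 56.3% of all tested genes. Their median log2 fold change was 0.21, against 0.04 over all tested genes. Many of these genes are cut from shared precursors and moved together between libraries, so their signs are not independent. Groups did not overlap in 1 gene, mt-Ts1, which was higher with ibuprofen, while 14.2% of all tested genes were higher and 8.73% lower without overlap. In bulk RNA, fewer cells of a type and less RNA per cell cannot be told apart.

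Together the 37 genes took 2.02%, 2.15% and 2.55% of all CPM in untreated replicates 1 to 3 and 2.75%, 2.69% and 2.38% in ibuprofen replicates 1 to 3. The means were 2.24% ± 0.279 and 2.60% ± 0.198 (SD, n = 3), and the groups overlapped, since ibuprofen replicate 3 lay below untreated replicate 3. Counting error was small beside this spread, with Wilson 95% intervals from the estimated reads whose half-width was at most 0.011 percentage points. Protein genes made up most of it, at 1.32%, 1.57% and 1.93% in untreated and 2.05%, 1.99% and 1.75% in ibuprofen libraries. The rRNA genes held 0.673%, 0.553% and 0.594% in untreated and 0.661%, 0.662% and 0.596% in ibuprofen libraries. Whereas the protein share was lowest in untreated replicate 1, the rRNA share was highest there. rRNA CPM per protein CPM was therefore 0.508 in untreated replicate 1 and 0.309 to 0.353 in the other 5 libraries. The tRNA genes held 0.0231%, 0.0258% and 0.0343% in untreated and 0.0372%, 0.0364% and 0.0272% in ibuprofen libraries, again with overlap. tRNA CPM per protein CPM stayed between 0.0155 and 0.0183 in all 6 libraries.

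**Figure D1:**
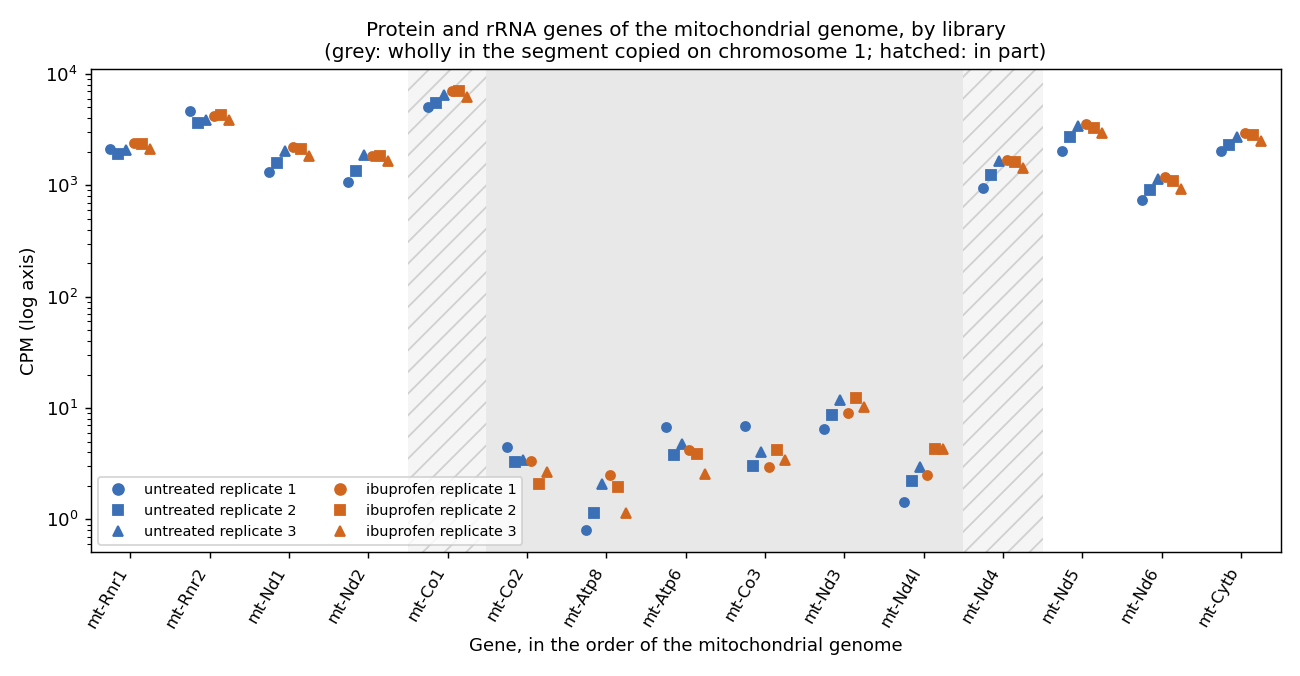
CPM on a log axis of the 13 protein and 2 rRNA genes, in the order of the mitochondrial genome, with 1 point per library (blue untreated, orange ibuprofen, shapes for replicates 1 to 3). The 6 protein genes on grey lie wholly in a segment that is copied on chromosome 1 and sit at 0.799 to 12.3 CPM, and the 7 other protein genes at 744 to 7099 CPM.

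Complex I, which feeds electrons from NADH into the chain, has 7 of the protein genes, and mt-Nd1, mt-Nd2, mt-Nd4, mt-Nd5 and mt-Nd6 were the abundant ones. mt-Nd1 stood at 1328, 1594 and 2021 CPM in untreated replicates 1 to 3 and at 2187, 2122 and 1846 CPM in ibuprofen replicates 1 to 3. mt-Nd2 stood at 1075, 1349 and 1865 CPM in untreated and 1822, 1835 and 1656 CPM in ibuprofen libraries. mt-Nd4 stood at 941, 1250.3 and 1641 CPM in untreated and 1675, 1622 and 1442 CPM in ibuprofen libraries. In all 3 genes untreated replicate 1 was lowest and untreated replicate 3 reached into or above the ibuprofen libraries, so that the groups overlapped. The log2 fold change was 0.33 ± 0.16 (SE) for mt-Nd1, 0.34 ± 0.17 for mt-Nd2 and 0.34 ± 0.18 for mt-Nd4, with limma adjusted p of 0.287, 0.324 and 0.333.

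mt-Nd5 was at 2053, 2723 and 3379 CPM in untreated and 3557, 3274 and 2929 CPM in ibuprofen libraries, a log2 fold change of 0.28 ± 0.18 (SE, limma adjusted p = 0.409). mt-Nd6, the only protein gene on the minus strand of the annotation, was at 744, 913 and 1133 CPM in untreated and 1186, 1086 and 921 CPM in ibuprofen libraries. Its log2 fold change was 0.21 ± 0.16 (limma adjusted p = 0.496), and it followed the plus-strand genes from library to library. mt-Nd6 CPM per CPM of the other 6 abundant protein genes ranged only from 0.0555 to 0.0626. The annotated mt-Nd5 and mt-Nd6 overlap by 14 bases on opposite strands. The strand setting of the counting is not given in the sources used here, and without it reads from the 2 strands cannot be told apart.

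Complex III has 1 mitochondrial gene, mt-Cytb, for cytochrome b. mt-Cytb was at 2018, 2313 and 2738 CPM in untreated and 2929.8, 2823 and 2497 CPM in ibuprofen libraries, a log2 fold change of 0.23 ± 0.14 (SE, limma adjusted p = 0.404). Complex IV, cytochrome c oxidase, has mt-Co1, mt-Co2 and mt-Co3, of which mt-Co1 carries the catalytic centre. mt-Co1 was at 5057, 5515 and 6453 CPM in untreated and 7099, 7078 and 6220.4 CPM in ibuprofen libraries, a log2 fold change of 0.27 ± 0.15 (limma adjusted p = 0.366). As in complex I, untreated replicate 1 was lowest and the groups of both genes overlapped.

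The 7 abundant protein genes moved together between libraries. All 7 were lowest in untreated replicate 1, and 6 of 7 were highest in ibuprofen replicate 1, the exception being mt-Nd2 with its highest value in untreated replicate 3. Their log2 fold changes lay between 0.21 and 0.34. Of their summed CPM, mt-Co1 made up 33.6% to 38.3% over the 6 libraries, mt-Nd5 15.5% to 17.6%, mt-Cytb 14.2% to 15.3% and mt-Nd1 10.05% to 10.7%. mt-Nd2 made up 8.14% to 9.70%, mt-Nd4 7.12% to 8.53% and mt-Nd6 5.26% to 5.89%. Of these shares only that of mt-Nd1 did not overlap between groups, by a narrow margin. It was 10.05%, 10.18% and 10.51% in untreated and 10.69%, 10.69% and 10.54% in ibuprofen libraries, and no test was made of it. In untreated replicate 1 the mt-Co1 and mt-Cytb shares were highest and the mt-Nd1, mt-Nd2, mt-Nd4 and mt-Nd5 shares lowest. Leaving out that library brought the 7 log2 fold changes to between 0.06 and 0.19, and leaving out untreated replicate 3 brought them to between 0.34 and 0.55, where mt-Nd2 was called (limma adjusted p = 0.0489).

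Levels of different genes can be compared only per length. mt-Co1 had the highest mean over the 6 libraries, 4037 CPM per kb of annotated gene, followed by mt-Cytb at 2232, mt-Nd1 at 1933, mt-Nd6 at 1921, mt-Nd5 at 1637, mt-Nd2 at 1542 and mt-Nd4 at 1037 CPM per kb. The library ranges of mt-Co1 and mt-Cytb stood apart, and those of every other pair of neighbours in this order overlapped. Within libraries the order of neighbours held in 6 of 6, except that mt-Nd1 was above mt-Nd6 in 2 of 6. The remaining 6 protein genes were far lower at 28.0 CPM per kb for mt-Nd3, 9.90 for mt-Nd4l, 7.88 for mt-Atp8, 6.37 for mt-Atp6, 5.22 for mt-Co3 and 4.68 for mt-Co2. Between these groups lay a gap in every library, from at most 35.5 CPM per kb in mt-Nd3 to at least 683 in mt-Nd4.

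The 6 low genes were neighbours. Together with the end of mt-Co1 and the start of mt-Nd4 they lay in mitochondrial bases 6390 to 11042, a stretch of 4653 bases. It spans the first to the last match of GENCODE M21 transcripts of 7 gene models on chromosome 1, at 99.71% to 100% identity. On the minus strand of GRCm38 these matches span bases 24611535 to 24616188. All of mt-Co2, mt-Atp8, mt-Atp6, mt-Co3, mt-Nd3 and mt-Nd4l was inside this segment, as was 31.3% of mt-Co1 and 63.6% of mt-Nd4, while mt-Nd1, mt-Nd2, mt-Nd5, mt-Nd6 and mt-Cytb lay outside. mt-Atp8 and the tRNA genes mt-Ts1, mt-Td, mt-Tk, mt-Tg and mt-Tr have no annotated model in this stretch of chromosome 1. None of them was aligned there. The distance from the end of the matched mt-Co2 bases to mt-Atp6 is 233 bases in both places. If all reads of mt-Co1 and mt-Nd4 had come from their bases outside the segment, which the files do not show, their means would be 5873 and 2846 CPM per kb. The first 90 bases of mt-Co2 and of its chromosome 1 model Gm28661 are shown because a read from either would match both equally well. Below them stand 90 bases of mt-Cytb, an abundant gene outside the segment, with its closest nuclear model, Gm11410 on chromosome 4, which is 92.9% identical over 1142 bases. Capitals mark bases that differ, 0 of 90 in the first pair and 8 of 90 in the second. Sequences are GENCODE M21 transcripts of GRCm38, 5′ to 3′.
mt-Co2, chrM:7013-7102, plus strand: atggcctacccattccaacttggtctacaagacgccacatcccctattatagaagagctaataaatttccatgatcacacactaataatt
Gm28661, chr1:24615476-24615565, minus strand: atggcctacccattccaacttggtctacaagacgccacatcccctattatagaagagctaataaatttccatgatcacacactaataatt
mt-Cytb, chrM:14445-14534, plus strand: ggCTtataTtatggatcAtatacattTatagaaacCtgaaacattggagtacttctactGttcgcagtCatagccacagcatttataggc
Gm11410, chr4:80004289-80004378, plus strand: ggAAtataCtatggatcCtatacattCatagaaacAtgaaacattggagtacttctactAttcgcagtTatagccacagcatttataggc

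The chromosome 1 models were low as well. Gm10925, the copy of mt-Atp6, had 5.50 to 9.34 CPM over the 6 libraries, Gm28437 (mt-Co3) 3.85 to 5.80, Gm28661 (mt-Co2) 0.799 to 2.498, Gm10222 (mt-Nd4l) 0.5 to 1.30 and Gm28438 (mt-Nd3) 0.2 to 1.05 CPM. Adding a copy to its mitochondrial gene gave at most 13.4 CPM for any of these pairs. How reads with several matches were treated is not given in the sources used here, so the values of the 6 low genes are uncertain as measures of their transcripts. The models Gm13340, 97.6% identical to mt-Co1, and Gm11410 had at most 7.09 and 0.25 CPM. Other matches lay in Cep295, at 43.1 to 64.3 CPM over the whole gene. That value is not the level of the matching bases. Cep295 matched mt-Tl1 at 93.5% over 62 bases and mt-Tn at 91.5% over 71 bases. It also matched mt-Ta, mt-Ty and mt-Tc, at 84.1% to 89.8%. Its longest match was to mt-Rnr2, at 77.9% over 662 bases. The part of these matches in the mitochondrial values was not tested.

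Within this limit the 6 genes gave no common direction, with a median log2 fold change of -0.01 and a range of -0.42 to 0.55. mt-Co2 was at 4.45, 3.25 and 3.40 CPM in untreated and 3.35, 2.10 and 2.65 CPM in ibuprofen libraries (log2 fold change -0.35 ± 0.21 SE, limma adjusted p = 0.406). mt-Co3 was at 6.94, 3.00 and 4.00 CPM in untreated and 2.95, 4.20 and 3.45 CPM in ibuprofen libraries (-0.27 ± 0.26, limma adjusted p = 0.610). Both had their highest value in untreated replicate 1, the library in which the 7 abundant genes were lowest. mt-Atp6, a membrane subunit of ATP synthase (complex V), was highest in the same library, at 6.80, 3.80 and 4.80 CPM in untreated and 4.20, 3.90 and 2.55 CPM in ibuprofen libraries (-0.42 ± 0.24, limma adjusted p = 0.374). mt-Atp8, the other complex V gene, shares 43 bases with mt-Atp6 and rested on 5 to 20 reads per library, at 0.799, 1.15 and 2.10 CPM in untreated and 2.498, 1.95 and 1.15 CPM in ibuprofen libraries (0.30 ± 0.27, limma adjusted p = 0.581). The 2 complex I genes of the segment were lowest in untreated replicate 1. mt-Nd3 was at 6.44, 8.59 and 11.8 CPM in untreated and 9.09, 12.3 and 10.3 CPM in ibuprofen libraries (0.24 ± 0.22, limma adjusted p = 0.565). mt-Nd4l was at 1.45, 2.20 and 2.95 CPM in untreated and 2.498, 4.30 and 4.25 CPM in ibuprofen libraries (0.55 ± 0.25, limma adjusted p = 0.280), or 9 to 37 reads, and overlaps mt-Nd4 by 7 bases. Groups overlapped in all 6 genes.

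The rRNA genes behaved differently from the abundant protein genes in untreated replicate 1. mt-Rnr1, the 12S rRNA of the small mitochondrial ribosomal subunit, was at 2114, 1896 and 2082 CPM in untreated and 2389, 2365 and 2102 CPM in ibuprofen libraries, a log2 fold change of 0.17 ± 0.12 (SE, limma adjusted p = 0.458). mt-Rnr2, the 16S rRNA of the large subunit, was at 4615, 3639 and 3862 CPM in untreated and 4219, 4259 and 3863 CPM in ibuprofen libraries, a log2 fold change of 0.03 ± 0.14 (limma adjusted p = 0.922). Untreated replicate 1 held the highest mt-Rnr2 value, and both genes overlapped between groups. Over their lengths the means were 2259.8 CPM per kb for mt-Rnr1 and 2577 for mt-Rnr2, with library ranges of 1985 to 2502 and 2300.1 to 2917 CPM per kb. mt-Rnr2 CPM per mt-Rnr1 CPM was 2.18, 1.92 and 1.85 in untreated and 1.77, 1.80 and 1.84 in ibuprofen libraries, which did not overlap by a narrow margin. No test was made of this ratio, and the sources used here do not say how rRNA was treated in library preparation.

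**Figure D2:**
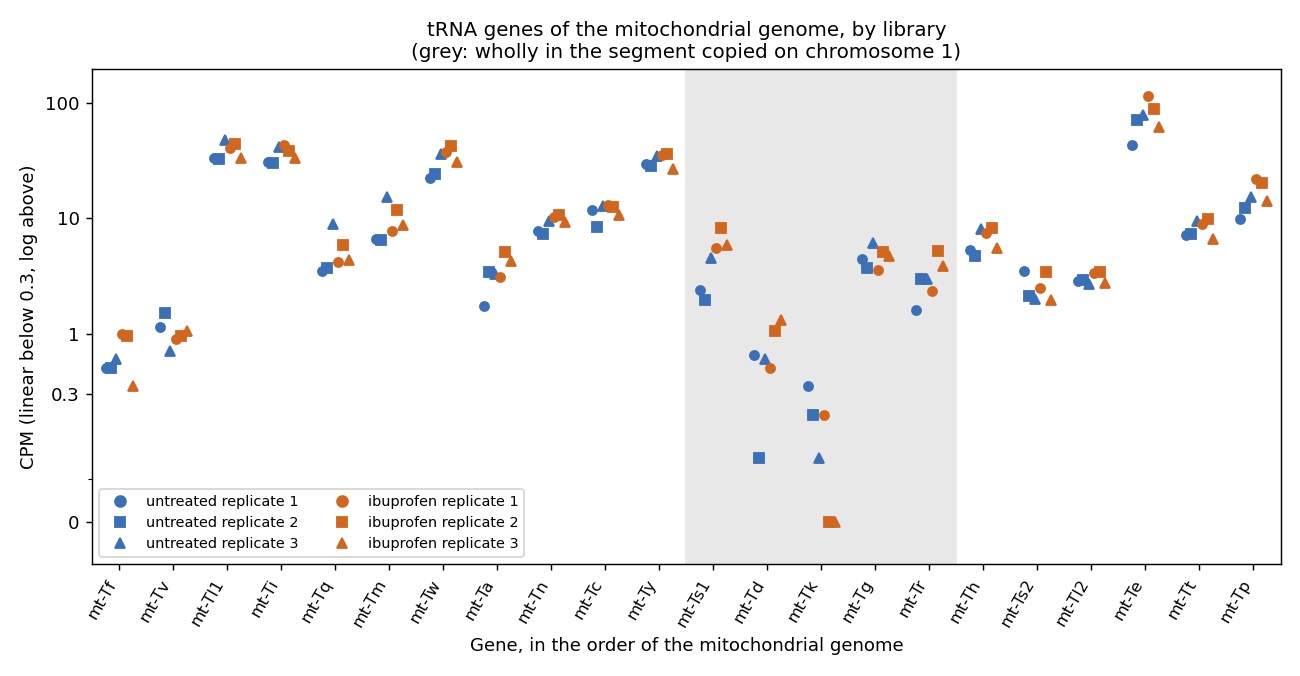
CPM of the 22 tRNA genes in the order of the mitochondrial genome, with 1 point per library and an axis that is linear below 0.3 and logarithmic above. mt-Te is highest at 43.5 to 116 CPM, mt-Tk is lowest at 0 to 0.35 CPM, and mt-Ts1 is the only gene whose ibuprofen points all lie above its untreated points; grey marks genes wholly in the copied segment.

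The tRNA genes spanned 0 to 116 CPM. mt-Te, for glutamate, was the most abundant at 43.5, 71.5 and 79.05 CPM in untreated and 116, 88.9 and 61.8 CPM in ibuprofen libraries, and made up 18.8% to 31.3% of all tRNA CPM. Its groups overlapped widely, with a log2 fold change of 0.45 ± 0.24 (SE, limma adjusted p = 0.344). Per length it reached a mean of 1114 CPM per kb, whereas no other tRNA gene exceeded the 528 CPM per kb of mt-Ti, for isoleucine. mt-Tl1, for leucine, was at 33.2, 33.1 and 48.1 CPM in untreated and 41.0, 44.3 and 33.2 CPM in ibuprofen libraries (log2 fold change 0.06 ± 0.17, limma adjusted p = 0.871). mt-Ti was at 30.7, 30.4 and 41.5 CPM in untreated and 43.6, 38.8 and 33.4 CPM in ibuprofen libraries (0.18 ± 0.15, limma adjusted p = 0.555). Per length mt-Ti and mt-Tl1 (517 CPM per kb) did not stand apart, with library ranges of 441 to 632 and 441 to 641 CPM per kb. At the other end mt-Tk, for lysine, was at 0.35, 0.25 and 0.15 CPM in untreated and 0.25, 0 and 0 CPM in ibuprofen libraries, which is 0 to 2 reads. A listed 0 allows an expected count of up to 3 reads, or 0.342 to 0.472 CPM by library, for counting error only. By position alone, without an alignment of its own, mt-Tk lies wholly in the copied segment, as do mt-Ts1, mt-Td, mt-Tg and mt-Tr. The values of these 5 genes are therefore uncertain as measures of their transcripts, like those of the 6 low protein genes. Mature tRNAs are short, folded and heavily modified, so these values describe reads assigned to the annotated bases. mt-Te, mt-Ts1 and mt-Tk are shown in full as the genes with the highest level (mt-Te), the highest fold change (mt-Ts1) and the lowest level (mt-Tk), 5′ to 3′ as GENCODE M21 gives them, with capitals for the anticodon in the middle of the 7-base loop.
mt-Te, chrM:14071-14139, minus strand: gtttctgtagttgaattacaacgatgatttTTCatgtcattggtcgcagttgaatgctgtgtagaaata
mt-Ts1, chrM:6870-6938, minus strand: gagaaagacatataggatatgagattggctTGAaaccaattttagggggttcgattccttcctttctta
mt-Tk, chrM:7700-7764, plus strand: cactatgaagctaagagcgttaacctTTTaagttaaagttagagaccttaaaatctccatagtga

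mt-Ts1, for serine, had the highest log2 fold change of all 34 tested mitochondrial genes. It was at 2.40, 1.95 and 4.55 CPM in untreated and 5.55, 8.20 and 5.85 CPM in ibuprofen libraries, means of 2.96 ± 1.39 and 6.53 ± 1.45 CPM (SD, n = 3). Every ibuprofen library was above every untreated library, on 15 to 63 reads per library. The log2 fold change was 0.96 ± 0.26 (SE) with an unadjusted p of 0.00335 and a limma adjusted p of 0.118, so it was not called. Over the alternative settings the limma adjusted p ran from 0.00559 with library weights to 0.341 without untreated replicate 1, and it was 0.0366 without untreated replicate 3. mt-Ts1 lies by position wholly in the copied segment and shares 3 bases with mt-Co1 on the opposite strand, which had 32189 to 57975 reads.

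mt-Tp, for proline, had the next fold change among the tRNA genes, at 9.94, 12.4 and 15.5 CPM in untreated and 22.1, 20.3 and 14.0 CPM in ibuprofen libraries (log2 fold change 0.54 ± 0.20 SE, limma adjusted p = 0.213). Ibuprofen replicate 3 lay within the untreated range, so the groups overlapped. mt-Tw, for tryptophan, was at 22.5, 24.3 and 36.5 CPM in untreated and 37.7, 42.7 and 31.1 CPM in ibuprofen libraries (0.43 ± 0.19, limma adjusted p = 0.256). The 3 lowest fold changes among the tested tRNA genes belonged to mt-Tv, for valine, mt-Tg, for glycine, and mt-Tq, for glutamine. mt-Tv was at 1.15, 1.499 and 0.7 CPM in untreated and 0.899, 0.949 and 1.05 CPM in ibuprofen libraries (-0.09 ± 0.23, limma adjusted p = 0.863). mt-Tg was at 4.45, 3.70 and 6.10 CPM in untreated and 3.60, 5.10 and 4.70 CPM in ibuprofen libraries (-0.06 ± 0.22, limma adjusted p = 0.904). mt-Tq was at 3.50, 3.70 and 8.89 CPM in untreated and 4.20, 5.85 and 4.35 CPM in ibuprofen libraries (-0.05 ± 0.29, limma adjusted p = 0.949). In each the untreated values spread more widely than the ibuprofen values and enclosed most of them.

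Of the other tested tRNA genes, mt-Ty, for tyrosine, was the most abundant at 26.9 to 36.5 CPM. mt-Tc (cysteine), mt-Tn (asparagine), mt-Tm (methionine), mt-Tt (threonine) and mt-Th (histidine) lay between 4.70 and 15.3 CPM, and mt-Ta (alanine), mt-Tr (arginine), mt-Ts2 (serine) and mt-Tl2 (leucine) between 1.60 and 5.197 CPM. Groups overlapped in all 10, and their log2 fold changes ran from 0.04 for mt-Ts2 to 0.44 for mt-Ta and mt-Tr. The median log2 fold change was 0.14 over the 19 tested tRNA genes, 0.36 over the 8 on the minus strand and 0.09 over the 11 on the plus strand. Minus-strand CPM per plus-strand tRNA CPM overlapped between groups, at 0.916, 1.14 and 0.965 in untreated and 1.31, 1.07 and 1.02 in ibuprofen libraries. Strand here is that of the annotation, since the strand setting of the counting is not given. mt-Td, mt-Tf and mt-Tk fell short of the filter, with at most 1.30, 0.999 and 0.35 CPM, and mt-Tv just met it.

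**Figure D3:**
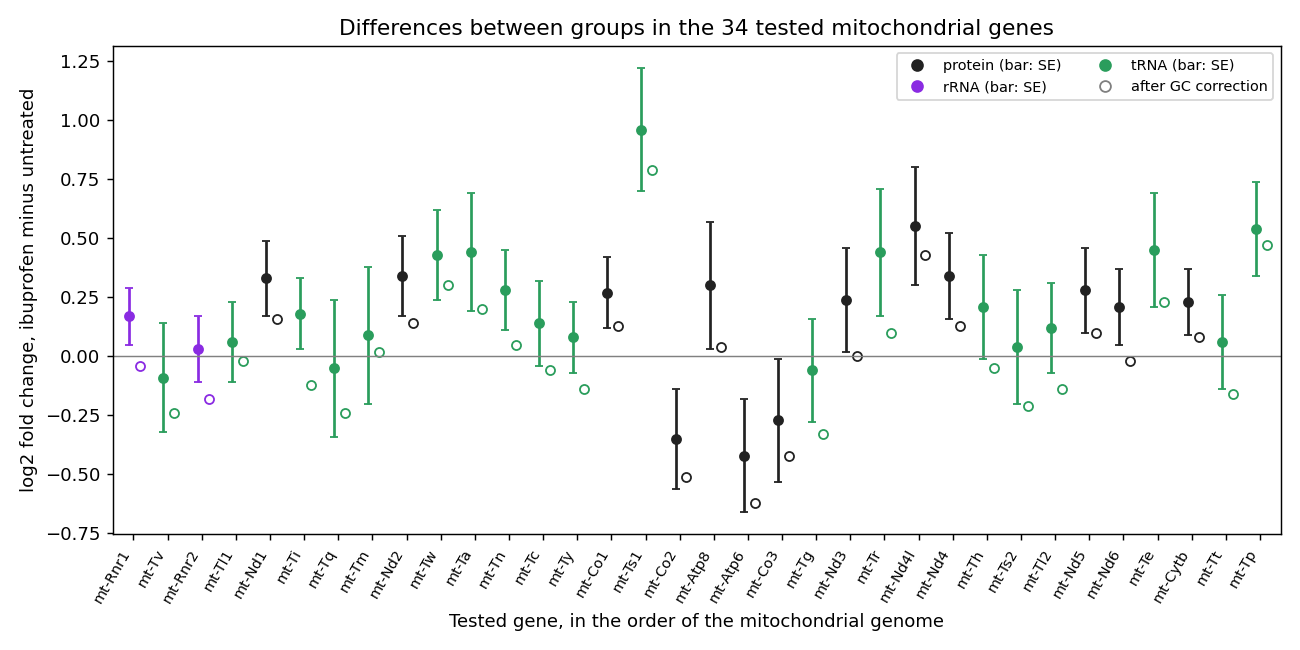
log2 fold change, ibuprofen minus untreated, of the 34 tested mitochondrial genes in genome order, with bars for the standard error, and open circles for the value after correction for GC content. Most filled points lie above 0, by up to 0.96 for mt-Ts1, and the open circles lie lower, 16 of 34 above and 17 of 34 below 0.

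The base composition of the libraries moved in part with the mitochondrial values. The members are rich in A and T, with a GC content of 17.1% to 44.9%. Across tested genes, Spearman's correlation of a gene's GC content with its deviation in a library from the 6-library mean was 0.47, 0.19 and -0.28 in untreated and -0.25, -0.32 and -0.09 in ibuprofen libraries. Genes are not independent replicates, so these are descriptions. At 37% GC, close to the abundant protein genes, the fitted log2 deviation of all tested genes was -0.335, -0.093 and 0.083 in untreated and 0.127, 0.126 and 0.103 in ibuprofen libraries. The mean log2 deviation of the 7 abundant mitochondrial protein genes was -0.445, -0.156 and 0.172 in untreated and 0.241, 0.186 and 0.003 in ibuprofen libraries. Both measures were lowest in untreated replicate 1 and highest in ibuprofen replicate 1. They parted in ibuprofen replicate 3, at 0.103 for all tested genes and 0.003 for the mitochondrial genes, and in untreated replicate 3, at 0.083 and 0.172. The fitted deviations at 37% GC did not overlap between groups, so treatment and base composition cannot be told apart.

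After a correction of each library for GC content, the log2 fold changes of these 7 genes lay between -0.02 for mt-Nd6 and 0.16 for mt-Nd1, with a lowest limma adjusted p of 0.452. The class medians went from 0.27 to 0.08 for protein genes, from 0.10 to -0.11 for rRNA genes and from 0.14 to -0.05 for tRNA genes. The corrected log2 fold change of mt-Ts1 was 0.79 and was not called (limma adjusted p = 0.127). The median of all tested genes was 0.04 with and without the correction. Because the fitted deviations differed between groups, the correction can remove a group difference together with a GC effect. The cause of the lower corrected values was not tested.

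**Figure D4:**
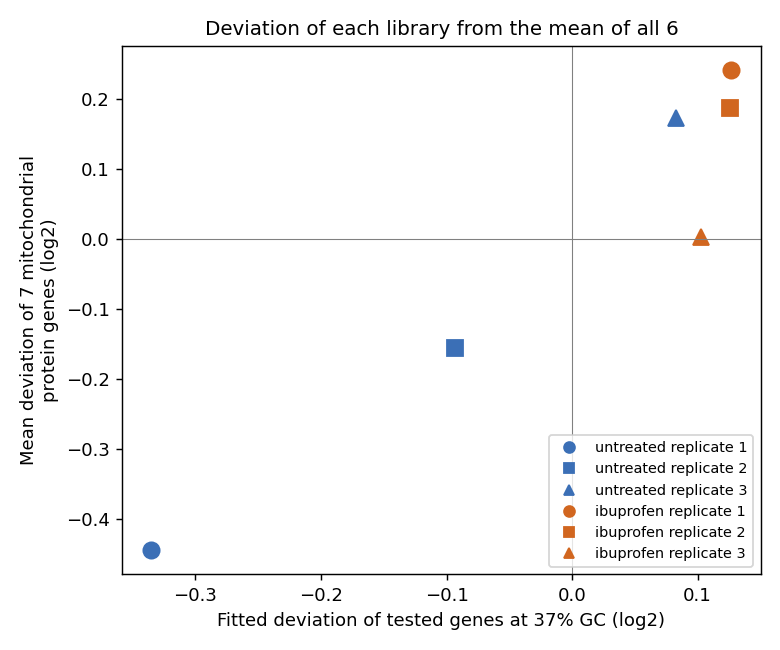
Mean log2 deviation of the 7 abundant mitochondrial protein genes (y axis) against the fitted log2 deviation of all tested genes at 37% GC (x axis), 1 point per library. Untreated replicate 1 lies at the lower left (-0.335 and -0.445), untreated replicate 2 next, and the other 4 libraries at the upper right.

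Nuclear genes that copy, transcribe and translate the mitochondrial genome were taken as 5 lists, of which limma called 0 of 146 tested genes, against 0.521% of all tested genes. Among 15 tested genes of replication and transcription, 7 had a positive and 8 a negative log2 fold change, with a median of -0.01. Polg2, the accessory subunit of the mitochondrial DNA polymerase, was at 17.1, 23.6 and 22.6 CPM in untreated and 31.5, 39.6 and 39.6 CPM in ibuprofen libraries. All 3 ibuprofen libraries were above all untreated ones, with a log2 fold change of 0.78 ± 0.16 (SE, limma adjusted p = 0.06). Polg2 was past the threshold with library weights, robust shrinkage, a GC correction (limma adjusted p = 0.0479) or without untreated replicate 3. Polrmt, the mitochondrial RNA polymerase, was at 30.5 ± 4.00 CPM in untreated and 21.6 ± 0.778 CPM in ibuprofen libraries (SD, n = 3), a log2 fold change of -0.47 ± 0.14 (limma adjusted p = 0.132), and its groups did not overlap. These 2 genes therefore differed in opposite directions, without either passing the test.

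Among 8 regulators of mitochondrial biogenesis the median log2 fold change was 0.03. Ppargc1b, a transcriptional coactivator, was at 21.2, 23.3 and 20.8 CPM in untreated and 12.04, 13.4 and 14.9 CPM in ibuprofen libraries, without overlap (-0.66 ± 0.14 SE, limma adjusted p = 0.0737). Ppargc1b was past the threshold with library weights (limma adjusted p = 0.00411). Gabpb1, a subunit of the GA-binding protein, had 0.24 ± 0.14 (limma adjusted p = 0.390). Of 25 tested genes of RNA processing, polyadenylation and stability, 12 had a positive and 13 a negative log2 fold change, with a median of -0.04. Ptcd2, a pentatricopeptide repeat protein, had -0.61 ± 0.21 (limma adjusted p = 0.170) and Tbrg4, a FASTK family protein also known as FASTKD4, -0.22 ± 0.11 (limma adjusted p = 0.320).

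Genes with names starting Mrpl or Mrps, taken for the proteins of the mitochondrial ribosome, had mostly negative log2 fold changes. This ribosome carries mt-Rnr1 and mt-Rnr2. The choice by name also took in Mrpl23-ps1, named as a pseudogene, at 0.5 to 1.30 CPM and with a positive log2 fold change of 0.18. Of 79 tested genes, 63 had a negative and 16 a positive log2 fold change, whereas 56.3% of all tested genes had a positive one. The median was -0.18, against 0.04 over all tested genes. It ranged from -0.25 to -0.15 over 19 settings, and 0 of 79 were called. At an unadjusted limma p under 0.05 there were 14 of 79, against 17.9% of all tested genes. Mrpl12 was at 38.3 ± 2.54 CPM in untreated and 29.5 ± 0.649 CPM in ibuprofen libraries (SD, n = 3), with a log2 fold change of -0.37 ± 0.12 (limma adjusted p = 0.155). Mrpl15 was at 21.2 ± 1.49 and 15.2 ± 2.09 CPM (-0.46 ± 0.15, limma adjusted p = 0.156). Both had all ibuprofen libraries below all untreated libraries, as had 8.73% of all tested genes. Further genes of the list did so too, among them Mrps26, Mrpl38 and Mrpl35, whereas Mrps18c and Mrps9 were higher without overlap. The share of the list without overlap was not computed. Among 19 mitochondrial aminoacyl-tRNA synthetases, which load the mitochondrial tRNAs, 8 had a positive and 11 a negative log2 fold change, with a median of -0.09. Vars2 for valine had -0.45 ± 0.16 (limma adjusted p = 0.198) and Aars2 for alanine -0.35 ± 0.17 (limma adjusted p = 0.302). With library weights limma called 21 of the 146 genes, 1 higher and 20 lower, and also called mt-Ts1, mt-Tp, mt-Tw, mt-Nd1 and mt-Nd2, all higher, among 2462 genes over the whole table.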

How the data were processed

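Sorted cells were lysed, RNA was extracted and 3 untreated and 3 ibuprofen libraries (Ovation Solo kit, NovaSeq) were sequenced, per the labels' protocols. The deposited values are CPM, as the authors' file headers name them. Per the submitters' processing notes, the tools were Cell Ranger 3.1.0, edgeR, HTSeq and STAR 2.5.3a, with no roles, and the build GRCm38. The annotation release is not given in the sources used here. The CPM steps returned at least 99.82% of the values above 0 as whole reads scaled and rounded up, which gave the depth, and no count model was fitted to these reads.

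limma 3.58.1 in R 4.3.3 was run over all tested genes on log2(CPM + 1), pseudocount 1, with a mean-variance trend and no covariate. Fold changes on this scale understate the change of low genes. The procedure was tested on simulated data, drawn for each gene independently and without a GC effect. That test cannot speak to differences between libraries such as those described above. Nuclear copies came from BLAST 2.17.0 of GENCODE M21 transcripts. The GC correction used a lowess curve per library over the 99.77% of tested genes with a GC value.

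All mt- genes are accounted for. The rule named all protein and rRNA genes, the 3 tRNA genes with the highest and the 3 with the lowest log2 fold change and the 3 most abundant, and the 2 smallest p of each nuclear list. mt-Tw was added after its values were seen. Prorp was not matched by that name. The group of mt- genes, defined by name alone, was picked for description, and the nuclear lists were chosen, with earlier results of these data known. Alternatives changed the pseudocount, filter, scaling, weights, shrinkage, block, GC correction and libraries.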

Additional observations from a re-analysis of the deposited data

How the results depend on the processing

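Signs and calls of the tested mitochondrial genes were kept with a pseudocount of 0.1 or 5, no filter, a filter of 5 CPM (22 genes tested), median-ratio scaling (mt-Rnr2 at 0), a total without mt- genes, robust shrinkage and the replicate block. Library weights called 5 of them and gave mt-Tq 0.24, mt-Co3 0.09 and mt-Tg 0.14, now positive. Leaving out 1 library at a time called 0 to 2 of them and 4 to 456 genes over the whole table, against 87, where no filter called 52, library weights 2462, the replicate block 434 and the block with GC correction 270. The cause was not tested. Whether replicate numbers pair the libraries was not settled. Same-number correlations were 0, 0.08 and 0.153, and those of different numbers ran from -0.144 to 0.097. Among untreated libraries only replicate 3 correlated best with its own number, and among ibuprofen libraries replicates 2 and 3 did. Under the block 0 mitochondrial genes were called, with a lowest limma adjusted p of 0.0759, and of the nuclear lists Polg2 (0.0168) and Ppargc1b (0.0482) were called.

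Taken relative to the summed mitochondrial protein genes of each library, by construction, the protein median was 0 and the rRNA median -0.18. The log2 fold change was then -0.11 for mt-Rnr1, -0.25 for mt-Rnr2, -0.21 for mt-Tl1, -0.09 for mt-Ti and mt-Tl2, -0.15 for mt-Tm, -0.12 for mt-Tc, -0.19 for mt-Ty, -0.01 for mt-Co1, -0.03 for mt-Th, -0.17 for mt-Ts2, -0.07 for mt-Nd6, -0.05 for mt-Cytb and -0.18 for mt-Tt. With GC correction, block or not, it was -0.04 for mt-Rnr1, -0.18 for mt-Rnr2, -0.02 for mt-Tl1 and mt-Nd6, -0.12 for mt-Ti, -0.06 for mt-Tc, -0.14 for mt-Ty and mt-Tl2, -0.05 for mt-Th, -0.21 for mt-Ts2 and -0.16 for mt-Tt, and the rRNA median was -0.11 (0.22 with library weights). Leaving out 1 library changed the sign in 9 genes, which ranged from -0.04 to 0.13 for mt-Rnr2, -0.03 to 0.24 for mt-Tl1, -0.25 to 0.32 for mt-Tq, -0.1 to 0.46 for mt-Tm, -0.02 to 0.24 for mt-Tc, -0.48 to 0.01 for mt-Co3, -0.2 to 0.1 for mt-Tg, -0.11 to 0.23 for mt-Ts2 and -0.04 to 0.21 for mt-Tt. Depth limits mt-Tk, mt-Td, mt-Tf, mt-Tv, mt-Atp8 and mt-Ts1, whose values rest on few reads. It also limits further genes, among them mt-Nd4l (9 to 37 reads), mt-Tr (10 to 40) and mt-Ta (11 to 39). mt-Co2 (16 to 29 reads), mt-Ts2 (17 to 26) and mt-Tl2 (18 to 27) are limited as well. For mt-Tk, mt-Td, mt-Atp8, mt-Ts1, mt-Nd4l, mt-Tr and mt-Co2 the copied segment is a further limit.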
